A study of Mus musculus with 6 samples.

Results

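Long noncoding RNAs are long transcripts for which no conserved protein coding frame is annotated. Some act in the nucleus, where they scaffold chromatin or splicing bodies, some carry the precursors of microRNAs or small nucleolar RNAs, and some are made from the opposite strand of a coding gene. In group 2 innate lymphoid cells (ILC2s), tissue lymphocytes that lack rearranged antigen receptors and secrete type 2 cytokines, most of them have no assigned role. Tumour necrosis factor (TNF) binds receptors that activate NF-kB, a family of transcription factors, and NF-kB target genes include noncoding as well as coding transcripts.

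The genes described here are those whose type in the deposited table is lincRNA (a long noncoding gene lying between coding genes) or antisense (one that runs against another gene), and whose mean over 6 libraries is at least 2 CPM (counts scaled to a common library total). Of 2379 lincRNA and antisense genes among 21825 genes in the table, 304 met this rule, 196 of them lincRNA and 108 antisense. All 304 passed the filter on low counts that preceded the test. They were chosen by their mean level, so levels are given as a description. The rule did not use the difference of TNFa from PBS, but it pools both groups: 21 of the 304 had a mean under 2 CPM with PBS and 10 a mean under 2 CPM with TNFa. These reached the minimum through the group where they were high, so their differences are not free of the choice.

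The ILC2s were sorted from lungs of 6-week-old BALB/c mice given 3 intraperitoneal injections of 1 µg IL-33, a cytokine that expands these cells. All cultures then received IL-2 and IL-7, each at 10 ng/mL, for 48 h. The 3 TNFa libraries (replicates 4, 5 and 6) came from cultures with 40 ng/mL TNFa, and the 3 PBS libraries (replicates 1, 2 and 3) from cultures with PBS in its place. Whether the 3 libraries of a group came from separate mice, pools or cultures is not stated in the labels, and PBS replicate 2 is titled a repeat, without a statement of what was repeated. The spread behind each p-value may thus be technical in part.

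Library totals ran from 25089415 to 32487004 estimated counts. Of 13 ILC2 markers, 12 had a mean of at least 10 CPM, and their summed level was 9991 to 11336 CPM with PBS and 10458 to 11556 CPM with TNFa. The exception was Thy1, at 2.32 to 4.53 CPM. Summed T cell markers gave 65.2 to 83 CPM, B cell markers 13.8 to 20.6 CPM, myeloid markers 14.1 to 40.4 CPM and mast cell markers 1074 to 1276 CPM. Markers of other innate lymphocytes summed to 2.25 to 6.73 CPM and erythroid markers to 1.38 to 3.68 CPM. Structural cell markers summed to 119 to 153 CPM with PBS and 143 to 198 CPM with TNFa. Scgb1a1, an airway club cell gene, was at 81 and 46.1 CPM in TNFa replicates 4 and 6, and 0.0341 to 8.07 CPM elsewhere. Epcam, on the same list, went the other way, at 26.2 to 29.2 CPM with PBS and 13.3 to 15.4 CPM with TNFa. Pecam1 overlapped between groups, at 79.3 to 118 and 76.7 to 145 CPM. The part of these markers in the results was not tested. TNFa replicate 5 stood apart: its mean correlation with the other libraries was 0.971 against 0.981 to 0.982 for the rest, and 4.34% of its counts lay on genes that collect ribosomal RNA or satellite reads, against 1.17 to 1.81% elsewhere.

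Most of the long noncoding RNAs were scarce. Their median level was 4.28 CPM, against 36.1 CPM for coding genes held to the same minimum. Of the 304, 175 lay between 2 and 5 CPM, 58 between 5 and 10, 49 between 10 and 50, 11 between 50 and 100, and 11 at 100 CPM or more. The smallest mean count was 59 per library. The minimum was reached by 14.8% of lincRNA genes, 10.2% of antisense genes and 71.1% of coding genes in the table. Just inside it were Gm49165 at 2.01, Gm5544 at 2.014 and Gm16008 at 2.027 CPM, and just outside were Gm45159 at 1.99, Gm31182 at 1.987 and Ccdc142os at 1.978 CPM.

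Together the 304 genes held about 1% of the counts: 0.977%, 1.05% and 0.919% in the PBS libraries and 0.977%, 1.18% and 0.935% in the TNFa libraries. The group means were 0.982% ± 0.0655 and 1.03% ± 0.133 (SD, n = 3 each), and the groups overlapped. A few genes made up most of this share, since the 10 most counted took 71.1% of it.

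The most counted of them was Gm26917, which lies on chromosome 17 next to Gm42418 and is listed among genes that collect ribosomal RNA reads. Its level was 3162, 3801 and 1875 CPM with PBS and 2470, 3565 and 2042 CPM with TNFa. Gm42418 stood at 70.7, 108 and 49.2 CPM with PBS and at 59.9, 191 and 57.5 CPM with TNFa. Both genes overlapped between the groups, and Gm42418 was highest in TNFa replicate 5.

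Gm26825 ranked second by counts, with 1301, 1176 and 1056 CPM in PBS and 1267, 1435 and 1193 CPM in TNFa libraries. It is a lincRNA gene at chr5:5781530-5783636 on the plus strand (mm10). Its transcript of 2026 bases matched the messenger RNA of Hspa8, a constitutive heat shock chaperone, in reverse orientation: 1940 bases aligned at 99.6% identity with 5 mismatches, and a further 87 bases aligned at 95.4%. A stretch of the Hspa8 coding sequence, bases 87 to 176, shows how few bases tell the genes apart, with the single differing base in capitals and Gm26825 turned to the sense of Hspa8.
reverse complement of Gm26825: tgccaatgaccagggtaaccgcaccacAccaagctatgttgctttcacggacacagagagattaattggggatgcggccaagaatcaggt
Hspa8: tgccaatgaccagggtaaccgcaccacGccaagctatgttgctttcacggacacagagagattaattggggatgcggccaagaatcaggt

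Gm26825 carried 119 to 141% of the Hspa8 count in each library. Hspa8 itself was at 981, 852 and 887 CPM with PBS and 988, 1016 and 987 CPM with TNFa, and the log2 difference of TNFa from PBS was 0.14 ± 0.11 (SE) for Gm26825 and 0.14 ± 0.09 for Hspa8. Reads that fit both genes are shared out by an estimate, and whether counting used strand is not given here, so the split between these genes is uncertain.

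The same caution touches 27 of the 295 genes with a transcript sequence to search, because at least 90% of their longest transcript matched another locus at 95% identity or more. In 9 cases that locus was a coding gene, 6 of these in reverse orientation, and in 11 cases it was another of the 304. Gm12840 (68.9, 73.2 and 70.1 CPM with PBS; 84.2, 105 and 73.9 CPM with TNFa) and Gm29408 (22.8 to 27.2 and 26.2 to 30.5 CPM) matched Gm26809 in full. These copies took 0.134 to 0.171% of the counts of a library.

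Per kilobase of exon, the order of levels differed from the order by counts. With PBS, Gm26917 held 885 CPM per kilobase, AW112010 669, Gm26825 581, Gm26809 239 and Malat1 101. AW112010 was thus the highest of those with neither a near copy nor a place on the ribosomal list.

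AW112010 is annotated as a lincRNA (chr19:11047617-11050566, minus strand) and is known as a transcript that immune stimuli induce and from which a short protein has been reported. It was measured at 592, 511 and 511 CPM with PBS and at 597, 751 and 662 CPM with TNFa. Every TNFa library lay above every PBS library, though TNFa replicate 4 exceeded PBS replicate 1 by very little. The log2 difference was 0.32 ± 0.12, a ratio of 1.25 with a 95% interval of 1.04 to 1.49, and it did not pass the test across all genes (edgeR adjusted p = 0.48). Without TNFa replicate 5 the log2 difference was 0.22.

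The AW112010 promoter (chr19:11050517-11050816, minus strand, RefSeq, GRCm38.p6) holds 1 exact match to the kB consensus bound by NF-kB, searched on both strands and shown in capitals.
AW112010 promoter: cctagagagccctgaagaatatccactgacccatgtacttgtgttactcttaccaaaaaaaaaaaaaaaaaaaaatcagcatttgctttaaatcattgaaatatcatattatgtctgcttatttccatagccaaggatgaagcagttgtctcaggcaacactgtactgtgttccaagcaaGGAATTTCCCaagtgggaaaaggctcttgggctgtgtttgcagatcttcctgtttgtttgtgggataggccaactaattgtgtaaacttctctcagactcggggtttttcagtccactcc

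Such a match occurred in 6 of 159 promoters that RefSeq lists for 133 of these genes (3.77%). This share was near the 4.51% of all 32851 promoters of that length. Zbtb11os1, which was lower with TNFa by the fitted difference, holds 1 match as well. The match describes the sequence only, and binding was not measured.

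None of the 304 long noncoding RNAs passed an adjusted p of 0.05 in the comparison of TNFa with PBS by edgeR's quasi-likelihood test, where 0.102% of all 15719 tested genes did. The smallest adjusted p among them was 0.42, and the log2 differences ran from -1.04 to 1.83. At an unadjusted p under 0.05 there were 12 of them (3.95%), against 8.31% of all tested genes, and 7 of the 12 were at 2 CPM or more in both groups. That count was 6 without PBS replicate 1 or 2, 21 without PBS replicate 3 and 19 without TNFa replicate 6. Shares over all tested genes without these libraries are not given here, so the changes in count are not a result about the 304. Of the 12, 10 were higher with TNFa (3.29%, against 3.68% of all genes). DESeq2 also called 0 of the 303 it gave a value, against 1.51% of all genes it tested. Leaving out TNFa replicate 5 left the count at 0, against 0.406% of all genes.

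The values of the 2 groups did not overlap, with TNFa higher, for 26 of the 304 (8.55%), a share near the 6.83% of all tested genes. With TNFa lower, 14 did not overlap (4.61%), against 8.35% of all genes. Both shares are a description, since with 3 libraries against 3 an exact permutation test of a single gene cannot go below p = 0.1.

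Among coding genes, Il9, a type 2 cytokine gene, passed the test (edgeR adjusted p = 0.00017). It stood at 24.1, 22.7 and 28.8 CPM with PBS and at 128, 121 and 122 CPM with TNFa. Il9 was named with earlier results of these data known, so it is not an independent check of the comparison. Its mean of 74.4 CPM lay above the median of 4.28 CPM of the long noncoding RNAs. How closely the data bound a difference depends on the level. For 132 of the long noncoding RNAs (43.4%), the 95% interval of the ratio lay within 2-fold both ways, against 84.3% of coding genes at 2 CPM or more. The median SE of the log2 difference was 0.36, against 0.17 for those coding genes. For the remaining genes a 2-fold difference is not excluded by the interval.

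**Figure D1:**
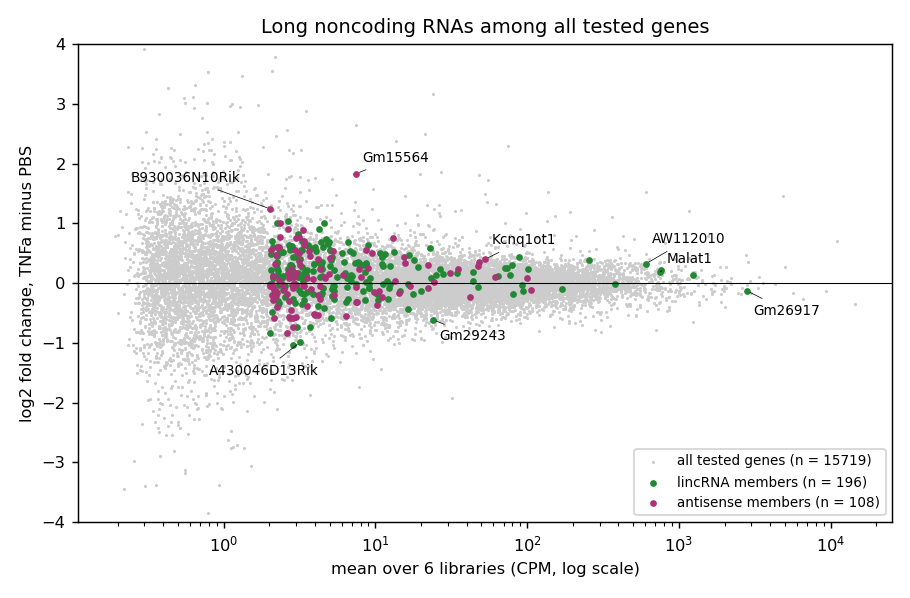
Log2 fold change of TNFa minus PBS (vertical axis) against the mean level over 6 libraries in CPM (horizontal log axis). Grey points are all 15719 tested genes, green points the 196 lincRNA and purple points the 108 antisense genes, most of which sit at the low end, between 2 and 10 CPM.

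Within a range of level, the long noncoding RNAs varied between replicates about as coding genes did when scarce and more at 50 CPM or more. The median coefficient of variation was 32.5% against 34.3% for coding genes at 2 to 5 CPM, 25.6% against 24.5% at 5 to 10 CPM, and 18% against 15.3% at 10 to 50 CPM. At 50 to 100 CPM it was 17.6% against 11.4%, and at 100 CPM or more 15.5% against 9.77%, with 11 long noncoding RNAs in each of those ranges. In the PBS libraries alone the values were lower: 11.8% against 12.3% at 10 to 50 CPM, 10.7% against 8.73% at 50 to 100 CPM, and 12.4% against 7.19% at 100 CPM or more.

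The genes with the smallest p-values higher with TNFa were scarce, apart from AW112010 and Gm14275. Of these 8, B930036N10Rik, Gm12223, 4632404H12Rik and 1700001L05Rik had PBS means under 2 CPM and met the minimum through the TNFa libraries. B930036N10Rik, an antisense gene over the exons of Alyref2, stood at 1.52, 1.07 and 1.06 CPM with PBS and at 2.61, 2.77 and 3.2 CPM with TNFa. Its groups did not overlap, and the log2 difference was 1.24 ± 0.40 (edgeR adjusted p = 0.42) and 1.26 without TNFa replicate 5. Alyref2, an RNA export adaptor gene, had a log2 difference of -0.11 ± 0.32. No role is known with certainty for B930036N10Rik.

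Gm12223 is an antisense gene at chr11:54247600-54254495 on the plus strand, and 96 of its 528 exonic bases lie over exons of Csf2 on the other strand. It was measured at 1.48, 1.61 and 1.64 CPM with PBS and at 3.31, 2.63 and 3.49 CPM with TNFa. Its groups did not overlap, and the log2 difference was 1.00 ± 0.37 (edgeR adjusted p = 0.49). Csf2, which encodes the growth factor GM-CSF, stood at 422, 377 and 345 CPM with PBS and at 629, 678 and 591 CPM with TNFa, a log2 difference of 0.73 ± 0.11 (edgeR adjusted p = 0.056). Gm12223 carried 0.35 to 0.59% of the Csf2 count in each library. Since the use of strand in counting is not given, reads of Csf2 and of Gm12223 cannot be told apart where they overlap.

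Gm12214 has all of its 417 exonic bases over exons of Il5, the gene of a cytokine that ILC2s secrete to sustain eosinophils (chr11:53723953-53724618, minus strand). It stood at 15.1, 10.7 and 15.8 CPM with PBS and at 20.5, 12.5 and 19.1 CPM with TNFa, and these overlapped, with a log2 difference of 0.33 ± 0.24 (edgeR adjusted p = 0.77). That difference ran from 0.17 without PBS replicate 2 to 0.51 without TNFa replicate 5. Il5 was at 4840, 4009 and 4712 CPM with PBS and at 5796, 5292 and 5237 CPM with TNFa, a log2 difference of 0.27 ± 0.10 (edgeR adjusted p = 0.51). Gm12214 held 0.237 to 0.365% of the Il5 count per library.

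Of the other genes with the 8 smallest p-values higher with TNFa, 4 did not overlap. Gm20186 stood at 3.16, 2.93 and 2.83 CPM with PBS and 4.91, 7.87 and 3.88 CPM with TNFa, and Gm14275 at 9.2, 10.2 and 9.75 against 15.5, 12.6 and 12.6 CPM. 4632404H12Rik lay at 1.21, 1.56 and 1.68 against 3, 3.96 and 2 CPM, and Gm26909 at 2.59, 2.94 and 3.66 against 4.05, 10.2 and 4.13 CPM. 1700001L05Rik, at 1.67, 1.5 and 2.03 against 1.98, 5.27 and 3.45 CPM, overlapped. Except in Gm14275, the highest value of each was that of TNFa replicate 5, and without it the log2 difference went from 1.00 to 0.42 in Gm26909 and from 1.04 to 0.65 in 1700001L05Rik, and from 0.90 to 0.56 in Gm20186.

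Among genes lower with TNFa, Gm29243 had the smallest p. This lincRNA gene (chr8:34216859-34226145, plus strand), for which no function is given here, stood at 33.1, 27.7 and 26 CPM with PBS and at 16, 24.3 and 16.8 CPM with TNFa. The groups did not overlap. The log2 difference was -0.61 ± 0.20, a ratio of 0.657 with a 95% interval of 0.481 to 0.899 (edgeR adjusted p = 0.43). TNFa replicate 5 lay nearest the PBS values, and without it the log2 difference was -0.82 (edgeR adjusted p = 0.094).

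A430046D13Rik stood at 4.85, 4.23 and 3.71 CPM with PBS and at 1.54, 2.27 and 2.57 CPM with TNFa, without overlap, a log2 difference of -0.99 ± 0.35 (edgeR adjusted p = 0.47). It starts 679 bases from the divergent start of Myl6b, a myosin light chain gene with a log2 difference of -0.02 ± 0.38. Gm15947, Gm20707 and Gm5544 also lay lower without overlap, with log2 differences of -0.55 ± 0.25, -0.73 ± 0.35 and -0.84 ± 0.41. Gm48275, Zbtb11os1 and Gm16279 overlapped between groups, with log2 differences of -1.04 ± 0.54, -0.84 ± 0.44 and -0.73 ± 0.40. That of Gm48275 was -1.92 ± 0.45 without TNFa replicate 5 (edgeR adjusted p = 0.13), and that of Gm16279 was -0.39 ± 0.41 without PBS replicate 3. With all libraries, adjusted p-values of Gm15947, Gm20707, Gm5544 and these 3 lay between 0.61 and 0.69 (edgeR). Gm5544 had a mean of 2.014 CPM over the 6 libraries and lower values with TNFa, so it met the minimum through the PBS libraries. The same may hold for Zbtb11os1, at a mean of 2.62 CPM. Such differences are not free of the choice.

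The largest difference of the 304 came from 1 library. Gm15564, an antisense gene chosen for mention after its values were seen, stood at 3.22, 3.25 and 3.47 CPM with PBS and at 2.52, 30.3 and 2.83 CPM with TNFa, the 30.3 being replicate 5. The log2 difference was 1.83 ± 0.85 with all libraries (edgeR adjusted p = 0.63) and -0.32 ± 0.36 without replicate 5.

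**Figure D2:**
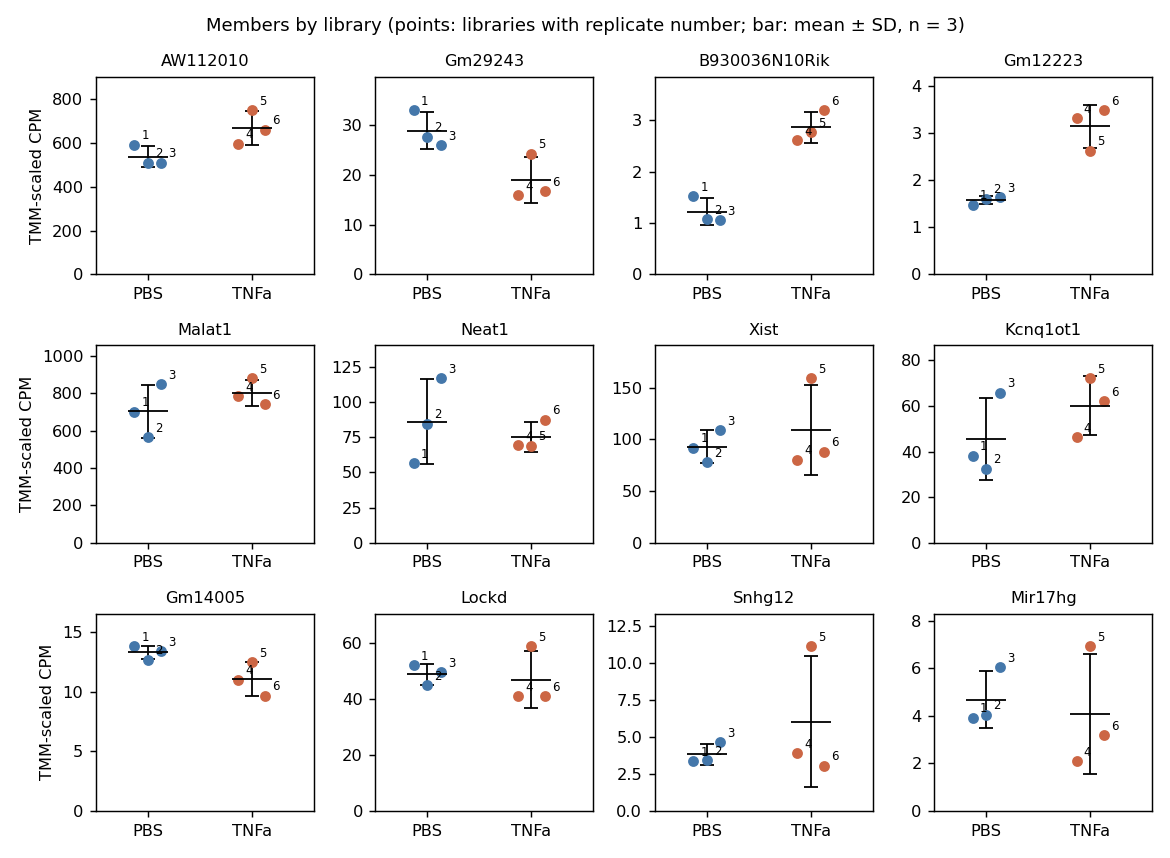
TMM-scaled CPM of 12 long noncoding RNAs (vertical axes start at 0) in the 3 PBS and 3 TNFa libraries; points are libraries with their replicate numbers, bars the mean ± SD (n = 3). In the top row the groups do not overlap. The highest point is TNFa replicate 5 for AW112010, Malat1, Xist, Kcnq1ot1, Lockd, Snhg12 and Mir17hg.

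Nuclear, X-linked and imprinted regulators made up 9 of the 304. 6 were higher and 3 lower with TNFa by the fitted difference, their median log2 difference was 0.14 (0.00 over all tested genes), and none passed the test. Over all 14 tested genes of this list, of any type, the median was 0.15 with 9 higher, 7 of the 14 were highest in TNFa replicate 5, and without that library the median was -0.00 with 7 higher. Malat1, which resides in nuclear speckles where splicing factors gather, stood at 702, 564 and 848 CPM with PBS and at 786, 881 and 742 CPM with TNFa, and the groups overlapped (log2 difference 0.19 ± 0.15, edgeR adjusted p = 0.77). Neat1, the scaffold of paraspeckles, stood at 56.6, 84.6 and 117 CPM with PBS and at 69.5, 69 and 87.6 CPM with TNFa (-0.19 ± 0.23, edgeR adjusted p = 0.87). The PBS values of Neat1 spanned the TNFa values.

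Xist, the RNA that coats and silences an X chromosome in females, was measured at 92, 77.7 and 109 CPM with PBS and at 80.3, 159 and 88.1 CPM with TNFa. Its antisense partner Tsix stood at 28, 28.3 and 32.2 against 38.1, 30.4 and 30.2 CPM. Since the use of strand in counting is not given, reads of Xist and of Tsix cannot be told apart where the genes overlap. The log2 differences were 0.23 ± 0.24 and 0.16 ± 0.16, and that of Xist was -0.14 without TNFa replicate 5. Jpx and Ftx, neighbours of Xist that promote its expression, stood lower, at 2.49 to 4.36 CPM and 4.35 to 6.79 CPM over all libraries.

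Kcnq1ot1, an imprinted RNA that silences neighbouring genes on its own chromosome, had 38.2, 32.5 and 65.9 CPM with PBS and 46.4, 72.2 and 62.1 CPM with TNFa. The groups overlapped through PBS replicate 3 (log2 difference 0.40 ± 0.26, edgeR adjusted p = 0.73). That difference was 0.77 ± 0.21 without PBS replicate 3 (edgeR adjusted p = 0.49), 0.21 without PBS replicate 2 and 0.25 without TNFa replicate 5. Tug1 stood at 85.5 to 115 CPM with PBS and 86.1 to 122 CPM with TNFa. 2900097C17Rik, also called Norad, which binds Pumilio proteins, stood at 69 to 75.7 and 69.2 to 98.1 CPM.

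Hosts of small nucleolar RNAs carry those RNAs in their introns. Including Cyrano (1700020I14Rik), which promotes decay of a microRNA, 5 genes of this list were among the 304, 3 higher and 2 lower with a median log2 difference of 0.27, and none passed the test. Snhg12 stood at 3.37, 3.44 and 4.62 CPM with PBS and at 3.91, 11.1 and 3.06 CPM with TNFa. Snhg6 stood at 8.62, 5.99 and 8.42 against 7.43, 13.8 and 7.71 CPM. In both, replicate 5 was the highest library, and the log2 differences went from 0.66 and 0.33 to -0.13 and -0.02 without it.

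Snhg20 stood at 14.2 to 16.1 CPM with PBS and 13 to 15.6 CPM with TNFa, and Cyrano at 84.2 to 99.7 and 84.7 to 103 CPM. Epb41l4aos lay at 2.28 to 3.5 and 2.69 to 4.27 CPM. Most hosts of this list carry another gene type in the table. Over all 17 tested, 14 were higher with TNFa with a median log2 difference of 0.26, and 12 were highest in TNFa replicate 5. Without that library the median was 0.05 and 10 were higher.

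Precursors of microRNAs are shown with the mature microRNAs they carry because these are what the transcripts are known for. Sequences are from RefSeq (GRCm38.p6), the seed, bases 2 to 8 that pair with targets, is in capitals, and mature microRNAs were not measured here. Mir17hg (chromosome 14, plus strand), which promotes lymphocyte proliferation and survival, carries 6 microRNAs in which 2 seeds each occur in a pair, AAAGUGC and GUGCAAA.
mmu-miR-17-5p: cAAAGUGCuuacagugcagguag
mmu-miR-20a-5p: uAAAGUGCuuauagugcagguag
mmu-miR-18a-5p: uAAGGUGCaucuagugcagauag
mmu-miR-19a-3p: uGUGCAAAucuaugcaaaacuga
mmu-miR-19b-3p: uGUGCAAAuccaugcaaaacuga
mmu-miR-92a-3p: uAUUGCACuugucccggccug

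Mir142hg (chromosome 11, plus strand) carries miR-142, which is abundant in blood cells, and 6720427I07Rik (chromosome 13, minus strand) carries 3 let-7 microRNAs that share the seed GAGGUAG.
mmu-miR-142a-5p: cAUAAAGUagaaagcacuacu
mmu-miR-142a-3p: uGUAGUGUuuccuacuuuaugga
mmu-let-7a-5p: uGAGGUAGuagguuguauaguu
mmu-let-7d-5p: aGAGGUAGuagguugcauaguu
mmu-let-7f-5p: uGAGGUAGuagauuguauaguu

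The precursors themselves were scarce and none passed the test. Mir17hg stood at 3.92, 4.05 and 6.05 CPM with PBS and at 2.09, 6.91 and 3.18 CPM with TNFa (log2 difference -0.20 ± 0.45, and -0.82 without TNFa replicate 5). Mir142hg stood at 2.66, 3.81 and 4.08 against 3.04, 6.77 and 3.39 CPM (0.32 ± 0.39). 6720427I07Rik, on no list of roles, stood at 1.64, 0.919 and 2.44 against 1.7, 3.85 and 2.09 CPM (0.61 ± 0.50). Its PBS mean was under 2 CPM, so it met the minimum through the TNFa libraries and its difference is not free of the choice. In all 3 the highest library was TNFa replicate 5, and the groups overlapped.

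With Ftx, Lncpint and Gm14005, 5 genes of the microRNA host list were among the 304, 1 higher and 4 lower, with a median log2 difference of -0.20. Lncpint, which is induced by p53, stood at 2.28 to 6.12 CPM with PBS and 1.5 to 3.97 CPM with TNFa. Mir155hg, the precursor of a microRNA induced in activated lymphocytes, fell short of the minimum level at a mean of 1.84 CPM. It stood at 1.09, 1.05 and 1.77 CPM with PBS and at 2.29, 1.57 and 3.21 CPM with TNFa, a log2 difference of 0.85 ± 0.46 (edgeR adjusted p = 0.69).

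The list of immune and inflammatory regulators contributed 8 genes, 3 higher and 5 lower with a median log2 difference of -0.12, and none passed the test. Over all 12 tested genes of this list, of any type, 6 were higher and 6 lower with a median of 0.02. Gm14005, called Morrbid, restrains the neighbouring proapoptotic gene Bcl2l11 in short-lived myeloid cells. It stood at 13.8, 12.7 and 13.4 CPM with PBS and at 11, 12.5 and 9.68 CPM with TNFa, just without overlap (log2 difference -0.27 ± 0.20, edgeR adjusted p = 0.77). The 95% interval of its ratio was 0.611 to 1.13.

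Lockd, transcribed downstream of the cell cycle inhibitor gene Cdkn1b, stood at 52.1, 44.8 and 49.5 CPM with PBS and at 40.9, 58.7 and 41 CPM with TNFa. Pvt1, a neighbour of Myc, stood at 7.88 to 10.1 CPM with PBS and 7.29 to 12.1 CPM with TNFa. Dubr stood at 15.8 to 20.8 and 12.6 to 19.1 CPM, and Gm4610 at 2.82 to 4.76 and 2.53 to 6.05 CPM. All 4 overlapped between groups.

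Flicr, an antisense gene known as a regulator of Foxp3 in regulatory T cells, was chosen for mention after its values were seen. It stood at 4.74, 1.26 and 3.68 CPM with PBS and at 2.23, 2.84 and 1.44 CPM with TNFa (log2 difference -0.57 ± 0.51). Of its 3583 exonic bases, 853 lie over exons of Foxp3 on the same strand, and Foxp3 had a mean of 31 CPM. Flicr reads in that stretch cannot be assigned to 1 gene.

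Of the other most counted genes, Gm26809 stood at 747, 711 and 676 CPM with PBS and at 812, 938 and 732 CPM with TNFa (0.22 ± 0.11, edgeR adjusted p = 0.66). AC160336.1 stood at 196 to 251 and 228 to 380 CPM, Gm42047 at 287 to 457 and 336 to 413 CPM, and Brip1os at 104 to 118 and 80.6 to 117 CPM. Gm47854, of which 29.6% matches Gapdh in reverse orientation, stood at 175, 182 and 166 CPM with PBS and at 161, 163 and 166 CPM with TNFa, without overlap before rounding (-0.10 ± 0.10, edgeR adjusted p = 0.84).

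Taken over the 304 genes, fitted differences leaned to higher values with TNFa. The median log2 difference was 0.13, with 189 higher (62.2%) and 115 lower, against a median of 0.00 and 50.6% higher over all tested genes and -0.02 for coding genes at 2 CPM or more. It was 0.12 over the 273 genes at 2 CPM or more in both groups, 0.17 for the lincRNA genes and 0.07 for the antisense genes. Among the 190 whose exons miss all coding exons the median was 0.18. The 131 long noncoding genes of other types at 2 CPM or more had a median of 0.10, so the lean was not particular to the 304. These are descriptions, with no test over the genes.

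TNFa replicate 5 moved with this lean. Of the 304, 122 (40.1%) had their highest value in that library and 34 (11.2%) their lowest, against 23.5% and 35.2% of coding genes at 2 CPM or more. The median log2 difference of the long noncoding RNAs from the PBS mean was -0.08, -0.02 and 0.11 in the PBS libraries and 0.05, 0.28 and 0.07 in TNFa replicates 4, 5 and 6. Coding genes had 0.02, 0.00 and -0.01, then 0.01, -0.07 and -0.01. Without replicate 5 the median over the 304 was 0.07 and 170 (55.9%) were higher. PBS replicate 3, with 0.11, was higher than TNFa replicates 4 and 6, and without it the median over the 304 was 0.23. The lowest value lay in PBS replicates 1, 2 and 3 for 30.9%, 19.7% and 10.5% of the 304. For coding genes at 2 CPM or more these shares were 10.8%, 13.8% and 16.1%.

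**Figure D3:**
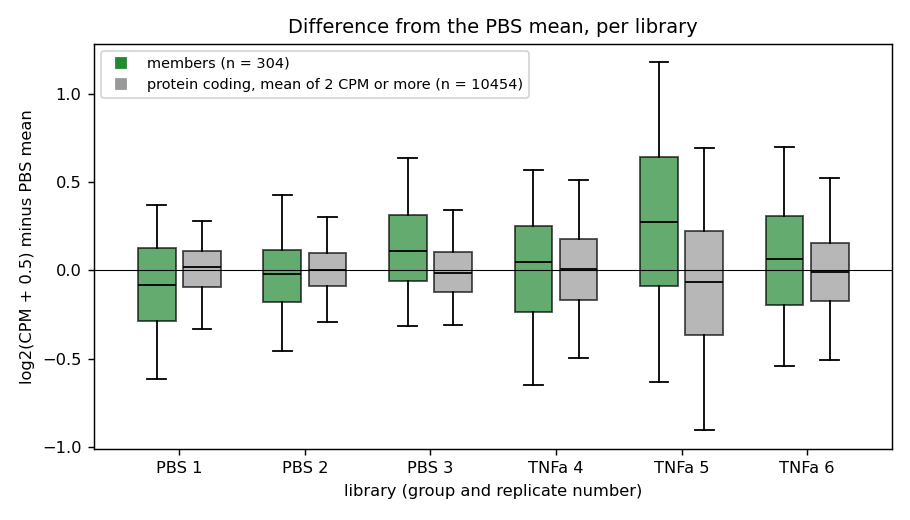
Log2(CPM + 0.5) minus the PBS mean of each gene (vertical axis) by library (horizontal axis), for the 304 long noncoding RNAs in green and coding genes at 2 CPM or more in grey. Boxes are quartiles with the median, whiskers the 5th and 95th percentiles; the green median is highest, at 0.28, in TNFa replicate 5, where the grey one is lowest, at -0.07.

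Position in the genome ties many of these genes to coding genes. Exons of 77 of the 108 antisense and 30 of the 196 lincRNA genes lay over coding exons of the other strand, and 114 lay over coding exons of either strand. In 103 of 117 such pairs with both genes tested the coding gene was the more abundant. Coding genes at 2 CPM or more had the higher median in general, at 36.1 against 4.28 CPM. The 2 log2 differences of a pair had the same sign in 61 of 117 pairs, and across pairs Pearson's r was 0.22 and Spearman's rho 0.16. Without TNFa replicate 5 the signs matched in 64 pairs. All pairs share the 6 libraries, and overlapping exons can share reads. None of the coding partners passed the test, where 15 of 10454 coding genes at 2 CPM or more did. With calls that rare, the absence of calls is not a result about the partners.

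Divergent pairs, in which a long noncoding RNA starts within 1000 bases of a coding gene on the other strand and runs away from it, numbered 34, and both genes were tested in 31. The signs matched in 23 of 31, with r = 0.40 and rho = 0.36, a description over pairs that share the same libraries. Without TNFa replicate 5 the signs matched in 15 of 31 pairs, with r = 0.07 and rho = -0.07, an alternative added after the data were seen. TNFa replicate 5 was the only library left out for the pairs. 1810013D15Rik and Cth, which encodes an enzyme that makes cysteine and hydrogen sulphide, start 143 bases apart and had log2 differences of 0.75 and 0.92, and of 0.24 ± 0.23 and 0.56 ± 0.40 without that library. 4632404H12Rik and Ube2q1, 376 bases apart, had 1.01 and -0.04. The first pair was chosen for mention after its values were seen.

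**Figure D4:**
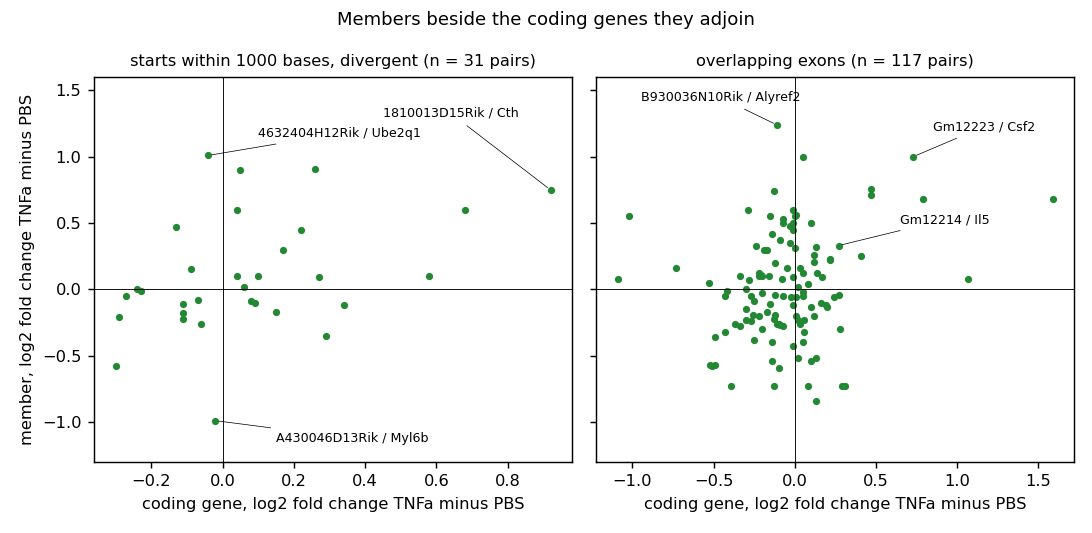
Log2 fold change (TNFa minus PBS) of each long noncoding RNA (vertical axis) against that of the adjoining coding gene (horizontal axis), for 31 divergent pairs on the left and 117 pairs with overlapping exons on the right. Each point is a pair; signs match in 23 pairs on the left (15 without TNFa replicate 5) and in 61 on the right (64 without it).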

How the data were processed

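RNA of sorted mouse lung ILC2s was sequenced in 3 PBS and 3 TNFa libraries. The authors deposited expected counts per gene, estimated with Partek's expectation-maximization and left unscaled, per the file headers; mm10, STAR and CASAVA 1.8.2 are named in the submitters' processing notes. The sources used here give neither the annotation release nor the strand setting. Counts were rounded, genes kept by filterByExpr (minimum count 10, total 15; 15719 left), scaled by TMM and tested with edgeR 4.0.16 (quasi-likelihood, robust) in R 4.3.3, with Benjamini-Hochberg adjustment over all tested genes at 0.05. CPM per library are TMM-scaled, and the 2 CPM rule used column totals. Totals of 25089415 to 32487004 set the counting error. Exons came from GENCODE M21, where 295 of the 304 genes were found, 292 with the same coordinates. Copies were searched with blastn 2.17.0. The named genes are the 10 with the highest mean CPM, the 8 with the smallest p in each direction, all on the lists of roles, and neighbours of ILC2 and NF-kB genes. The genes and lists were chosen with earlier results of these data known. Alternatives covered the test, scaling, filters, member rule and each library left out.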

Additional observations from a re-analysis of the deposited data

How the results depend on the processing

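No paired analysis was possible because the PBS libraries are numbered 1 to 3 and the TNFa libraries 4 to 6, so the groups share no replicate number. No long noncoding RNA passed an adjusted p of 0.05 under any alternative run, and the median log2 difference stayed between 0.07 and 0.23. The count at an unadjusted p under 0.05 was 12 as reported, 22 with DESeq2, 20 with a minimum of 1 CPM and 4 with a minimum of 5 CPM. It was 20 with all long noncoding gene types. Over the genes at a mean of 2 CPM or more in both groups it was 7, an alternative chosen after seeing the data. Leaving out single libraries gave 6 to 21, lowest without PBS replicate 1 or 2 and highest without PBS replicate 3. The genes whose groups did not overlap then numbered 63 to 85 in place of 40, with fewer libraries to compare. Shares over all tested genes under these alternatives are not given here, so the changes in count are not a result about the long noncoding RNAs. The share of counts on these genes was 0.050 percentage points higher with TNFa, and 0.074 without the ribosomal list. Of 48 genes named by the rules above, 18 changed the sign of their log2 difference in some alternative. In none had it passed the test, and the cause was not tested. Genes mentioned for other reasons, such as Gm15564, 6720427I07Rik, Flicr and 1810013D15Rik, are not among the 48. With RLE scaling Gm42047 was at 0.00, and with a filter at a mean of 2 CPM at 0.01. The other sign changes came from leaving out single libraries, with these ranges over the 6: 1700020I14Rik (-0.13 to 0.01), 2900097C17Rik (-0.02 to 0.24), Brip1os (-0.23 to 0.02), Ftx (-0.24 to 0.09), Gm26917 (-0.39 to 0.09), Gm42047 (-0.17 to 0.15), Gm42418 (-0.38 to 0.78), Jpx (-0.29 to 0.02), Lncpint (-0.54 to 0.30), Lockd (-0.25 to 0.03), Mir142hg (-0.13 to 0.52), Mir17hg (-0.82 to 0.10), Neat1 (-0.42 to 0.09), Pvt1 (-0.13 to 0.24), Snhg12 (-0.13 to 0.97), Snhg6 (-0.02 to 0.48), Tug1 (-0.04 to 0.23) and Xist (-0.14 to 0.41). Among the 48, leaving out TNFa replicate 5 turned the sign in 2900097C17Rik, Brip1os, Gm42047, Gm42418, Jpx, Lncpint, Mir142hg, Snhg12, Snhg6, Tug1 and Xist. Outside the 48, it also turned the sign in Gm15564. Depth limits the scarce genes most, and the spread between 3 libraries limits all.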
